A study of Mus musculus with 8 samples.

Results

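The genes described here encode the actin and myosin of non-muscle cells and proteins bound to them. They are 10 genes: the cytoplasmic actins Actb and Actg1, the non-muscle myosin heavy chains Myh9 and Myh10, the myosin light chains Myl6 and Myl9, the tropomyosin gene Tpm4, the transgelin gene Tagln2, the calponin gene Cnn2 and the filamin gene Flna. They were taken by symbol from a list of names. The rule uses no measured value, but the list was drawn up with earlier results of these data known. All 10 were among the 15747 genes that had values, each with 1 row. RNA was sequenced from Achilles tendons of C57BL/6J wild-type mice, with 4 libraries labelled sham and 4 labelled as injury by partial transection. Injury was made on the right side with an ear punch (diameter 1.5 mm), which took out 0.75 mm of the lateral tendon, and the tendon was freed from the soleus muscle before RNA was extracted. What the sham operation consisted of is not stated. The age and sex of the mice, the time from operation to sampling and any pooling of animals are likewise not stated. Whether each library is 1 animal is therefore unknown, and every p-value below refers to the spread among these libraries, part or all of which may be technical.

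Values are normalised read counts per gene, with totals from 13596488 to 15545903 per sham library and from 14568669 to 16263086 per injury library. All 9 tendon cell markers examined had values above 0 in every library, and they took 4.32 to 8.66% of a sham library and 15.5 to 17.7% of an injury library. Of the 9, 7 were called higher and none lower, with the tenocyte marker Tnmd up 4.61-fold. Col1a1 (adjusted p = 0.0524 in limma) and Col1a2 (adjusted p = 0.133) did not pass. Both had higher counts than the other 7 in each group, and they weigh most in that share. Skeletal muscle markers went the other way, with all 30 called lower, and took 7.23 to 12.5% of a sham library and 0.406 to 2.53% of an injury library. Sham replicate 4 and injury replicates 3 and 4 held the most muscle within their groups, although both injury libraries held less than any sham library. Some results are also given without these 3. In whole tissue, a change in the number of cells of a type and a change in RNA per cell cannot be told apart.

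Non-muscle cells build stress fibres and a cell cortex from Actb and Actg1 filaments, on which bipolar filaments of myosin II pull. Each myosin II carries a pair of heavy chains, with an essential light chain such as Myl6 and a regulatory light chain such as Myl9, whose phosphorylation, by myosin light chain kinase among others, switches the motor on. Tropomyosins, calponins and transgelins lie along the filaments, and filamins tie them together and to the membrane. In tendon fibroblasts this system transmits tension between the cell and its collagen matrix.

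Injured tendon held more RNA for 8 of the 10 genes, and none was called lower, at an adjusted p under 0.05 in limma. Over all genes tested, 28.5% were called higher, 31.3% lower and 59.7% in either direction. The median log2 fold change of the 10 was 0.55, against −0.021 for all genes. Cnn2 rose the most (3.10-fold), followed by Tpm4 (2.21-fold) and Actg1 (1.92-fold), whereas Myh10 and Myl9 did not pass. Their summed share of a library was 0.263 ± 0.0107% for sham and 0.373 ± 0.0226% for injury (mean ± SD, n = 4 each). For 6 of them, Actb, Actg1, Myh9, Myl6, Tpm4 and Cnn2, every injury library lay above every sham library, as it did for 26.7% of all genes. None of the 10 lay wholly below sham, against 28.9% of all genes, and 55.6% of all genes had no overlap in either direction. With the mean of the skeletal muscle markers as a covariate 7 of the 10 were called higher, the exception among the 8 being Tagln2. With every library scaled to the same total 6 were called higher and 1, Myl9, lower.

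**Figure D1:**
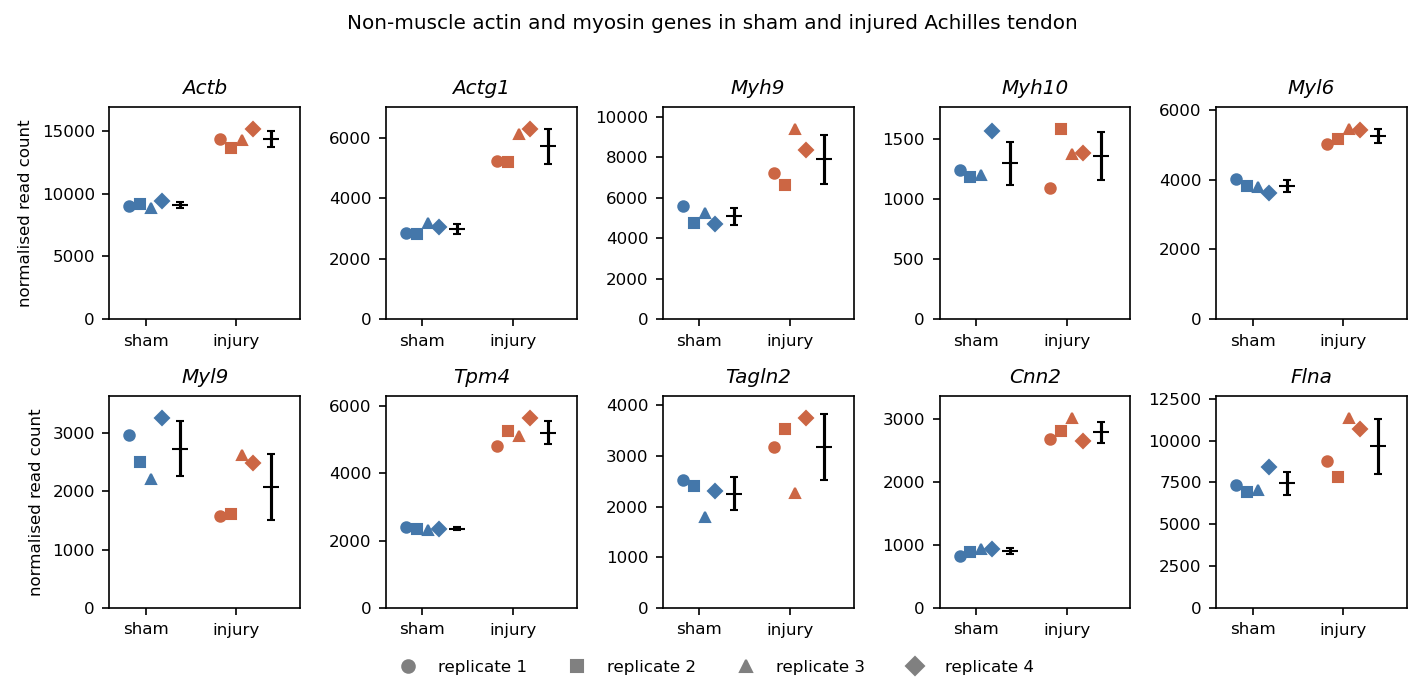
Normalised read counts (vertical axes, from 0) of the 10 genes in the 4 sham and 4 injury libraries, with one symbol per replicate and the mean ± SD beside each group. The injury points of Cnn2 and Tpm4 stand clear of all sham points, while those of Myh10 and Myl9 overlap them.

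The cytoplasmic actins both rose. Actb, which encodes beta-actin (ENSMUSG00000029580.14, chromosome 5, 142903115 to 142906754, reverse strand in GENCODE M21), had 9016, 9224, 8858 and 9401 normalised counts in the 4 sham libraries and 14384, 13668, 14311 and 15141 after injury. All injury values lay well above the narrow sham range. The rise was 1.57-fold (95% interval 1.37 to 1.81, adjusted p = 0.000216 in limma with Benjamini-Hochberg adjustment). Actb is often used as a reference gene, and in these libraries its injury mean exceeded its sham mean by many times the SD of either group, 237 and 603 counts.

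Actg1, encoding gamma-actin (ENSMUSG00000062825.15, chromosome 11, 120345690 to 120348542, reverse strand), had 2854, 2813, 3184 and 3046 counts in sham and 5241, 5210, 6126 and 6278 after injury. Its groups were far apart, with injury replicates 3 and 4 the highest. The log2 fold change was 0.94 (SE 0.09, adjusted p = 3.93e-05 in limma). Since Actg1 rose more than Actb, the Actb to Actg1 ratio fell, from a log2 ratio of 1.62 ± 0.10 to 1.34 ± 0.11 (n = 4 each). No injury library reached the lowest sham ratio, and the difference of −0.28 had an exact two-sided permutation p of 0.0286, the smallest that 4 against 4 libraries allow. Adjusted over the 15 ratios of related genes that were tested, this p was 0.0357. Actb made up 75.4 ± 1.32% of the counts of both actins in sham and 71.6 ± 1.51% in injury libraries.

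The coding sequences of these actins are much alike, which bears on how reads may be shared between them. In GENCODE M21 both are 1128 bases long, and 1000 bases (88.7%) are identical position by position, with 62 bases as the longest identical run. Their first 90 coding bases are shown for that reason, with capitals at the 16 positions where they differ.
Actb: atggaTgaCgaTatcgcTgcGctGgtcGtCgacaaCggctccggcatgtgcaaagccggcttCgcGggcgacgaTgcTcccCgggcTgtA
Actg1: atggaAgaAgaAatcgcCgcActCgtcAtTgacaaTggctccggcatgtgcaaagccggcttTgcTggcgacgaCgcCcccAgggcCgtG
Of all 50-base words in the annotated transcripts of Actg1, 37.4% also occur in transcripts of another annotated gene, first among them the predicted gene Gm12715. For Actb the share was 9.12%, with Lrrc58 first. Actb and Actg1 have 30 of these words in common, out of 2916 in Actb and 2927 in Actg1. How reads with several matches were counted is not given in the sources used here. The split of such reads between the actins, and between Actg1 and its copies, is therefore uncertain.

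Of the myosin II heavy chains, Myh9 rose and Myh10 did not pass. Myh9, the heavy chain of non-muscle myosin IIA (ENSMUSG00000022443.17, chromosome 15, 77760587 to 77842175, reverse strand), had 5610, 4773, 5235 and 4699 counts in sham and 7233, 6657, 9384 and 8347 after injury. Injury replicate 3 was the highest, and the groups did not overlap. Myh9 rose 1.55-fold (95% interval 1.28 to 1.87, adjusted p = 0.00175 in limma).

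Myh10, the heavy chain of non-muscle myosin IIB (ENSMUSG00000020900.15, chromosome 11, 68691559 to 68816632, forward strand), had 1242, 1187, 1196 and 1565 counts in sham and 1088, 1579, 1378 and 1383 after injury. One injury library lay below and one above the whole sham range, and sham replicate 4 stood apart from the other sham libraries. The fitted ratio was 1.04 with a 95% interval of 0.853 to 1.28 (adjusted p = 0.701 in limma), an interval that leaves room for a change in either direction. The Myh9 to Myh10 ratio had a log2 value of 1.97 ± 0.27 in sham and 2.54 ± 0.32 in injury libraries. These ratios overlapped between the groups, and the difference did not pass (exact two-sided permutation p = 0.0857, adjusted 0.0989). The third non-muscle heavy chain gene, Myh14, dropped from 691 ± 210 to 93.5 ± 61.7 counts (n = 4 each, 8.43-fold lower, adjusted p = 0.000336 in limma). Its injury values ran from 33 in replicate 1 to 177 in replicate 4, in the same order as the skeletal muscle share of those libraries. With the muscle covariate the log2 fold change of Myh14 was −0.85 (adjusted p = 0.0255) in place of −3.08.

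The light chains diverged. Myl6, the essential light chain shared by non-muscle and smooth muscle myosin (ENSMUSG00000090841.2, chromosome 10, 128490860 to 128494145, reverse strand), had 4028, 3823, 3794 and 3613 counts in sham and 5038, 5161, 5446 and 5424 after injury. Its injury values were close together and all above sham. The rise was 1.38-fold (95% interval 1.24 to 1.54, adjusted p = 0.00042 in limma). Transcripts of other annotated genes, first among them Gm5526, hold 8.38% of the 50-base words of Myl6.

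Myl9 encodes a regulatory light chain that is abundant in smooth muscle and also found in stress fibres (ENSMUSG00000067818.6, chromosome 2, 156775420 to 156781658, forward strand). It had 2970, 2495, 2217 and 3252 counts in sham and 1574, 1607, 2629 and 2482 after injury. Injury replicates 1 and 2 lay below every sham library, while replicates 3 and 4 lay inside the sham range. The fit gave a value 1.34-fold lower in injury that did not pass (log2 fold change −0.42, SE 0.20, 95% interval −0.87 to 0.02, adjusted p = 0.0911 in limma). It passed as lower once injury replicate 3 was left out (−0.55, adjusted p = 0.0396), with equal library totals (−0.52, adjusted p = 0.0282) and without the libraries richest in muscle within each group (−0.68, adjusted p = 0.00268). With the muscle covariate its sign turned (0.46, adjusted p = 0.114).

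The Myl6 to Myl9 ratio rose without overlap, from a log2 value of 0.50 ± 0.27 to 1.38 ± 0.34 (exact two-sided permutation p = 0.0286, adjusted 0.0357). Myl12a, another regulatory light chain gene, fell 1.54-fold, from 2338 ± 257 to 1512 ± 44.6 counts (adjusted p = 0.000254 in limma), and 207 bases of its exons overlap Myom1, a muscle gene. The log2 ratio of Myl9 to Myl12a was 0.22 ± 0.21 in sham and 0.41 ± 0.42 in injury libraries and did not pass (exact two-sided permutation p = 0.429, adjusted 0.459).

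Among the filament-binding genes were the steepest rises of the 10, those of Cnn2 and Tpm4. Cnn2, which encodes the calponin of non-muscle cells (ENSMUSG00000004665.10, chromosome 10, 79988584 to 79996062, forward strand), had 832, 895, 931 and 936 counts in sham and 2678, 2816, 3012 and 2651 after injury. The lowest injury library stood far above the highest sham library. Cnn2 rose 3.10-fold (95% interval 2.78 to 3.46, adjusted p = 6.24e-07 in limma), a larger log2 fold change than that of 97.2% of all genes. Cnn3, the acidic calponin, rose 1.92-fold, from 2034 ± 131 to 3898 ± 169 (adjusted p = 1.28e-05). Cnn1, the calponin of smooth muscle, fell from 289 ± 113 to 118 ± 81.6 (log2 fold change −1.56, adjusted p = 0.0347). The call of Cnn1 was lost when sham replicate 1, 2 or 4 or injury replicate 1 or 2 was left out (log2 fold change −1.61 to −1.05, adjusted p up to 0.0906), and its sign turned with the muscle covariate (0.71, adjusted p = 0.456).

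Tpm4 encodes a tropomyosin of non-muscle cells (ENSMUSG00000031799.10, chromosome 8, 72134975 to 72153142, forward strand). It had 2408, 2349, 2318 and 2344 counts in sham and 4823, 5272, 5126 and 5640 after injury. The sham libraries were nearly equal, and every injury library lay far above them. Tpm4 rose 2.21-fold (95% interval 1.98 to 2.47, adjusted p = 3.81e-06 in limma). Its exons overlap 134 bases of Gm26586 on the opposite strand, and whether the counting used strand is not given in the sources used here.

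Tagln2, encoding transgelin-2 (ENSMUSG00000026547.15, chromosome 1, 172500047 to 172507380, forward strand), had 2526, 2402, 1804 and 2305 counts in sham and 3177, 3539, 2260 and 3744 after injury. Injury replicate 3 lay among the sham libraries, as did no other injury library. The fit gave a rise of 1.39-fold (95% interval 1.07 to 1.81, adjusted p = 0.0334 in limma). Tagln2 was no longer called when sham replicate 3 or 4 or injury replicate 1, 2 or 4 was left out (log2 fold change 0.37 to 0.49, adjusted p up to 0.0870), and with equal totals (adjusted p = 0.0570) or the muscle covariate (adjusted p = 0.319).

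Flna encodes filamin A, the broadly expressed actin crosslinker (ENSMUSG00000031328.16, chromosome X, 74223461 to 74249820, reverse strand). Its libraries held 7363, 6959, 7052 and 8452 counts in sham and 8794, 7818, 11333 and 10690 after injury. Injury replicate 2 lay below the highest sham library, and injury replicates 3 and 4 were the highest of all. The rise was 1.29-fold (95% interval 1.04 to 1.59, adjusted p = 0.0429 in limma), the smallest of the 8. Leaving out sham replicate 1, 2 or 3 or injury replicate 1, 3 or 4 ended the call of Flna (log2 fold change 0.28 to 0.40, adjusted p up to 0.119). With equal totals it was not called either (0.27, adjusted p = 0.0985), nor without the libraries richest in muscle within each group (0.22, adjusted p = 0.0815), while the muscle covariate raised it to 0.83.

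Most muscle-type relatives of the 10 genes were called lower. The skeletal actin gene Acta1 dropped from 249964 ± 58416 to 38254 ± 26629 counts (8.06-fold lower) and the skeletal filamin gene Flnc from 9922 ± 2511 to 2524 ± 1480 (4.47-fold lower). The smooth muscle myosin heavy chain gene Myh11 was 2.77-fold lower and the smooth muscle transgelin gene Tagln 1.64-fold lower, with 1241 bases of Tagln exons shared with other genes. Of 17 muscle-type actin, myosin, tropomyosin, transgelin, calponin and filamin genes, none was called higher, 15 were called lower and 2 did not pass, with a median log2 fold change of −2.54. Those that did not pass were the smooth muscle actins Acta2 and Actg2, of which Actg2 was chosen for mention after its values were seen. Acta2 had 5686 ± 1225 counts in sham and 3846 ± 1506 in injury libraries (adjusted p = 0.0768 in limma). It passed as lower under 4 of 20 alternatives. These were equal library totals (log2 fold change −0.72, adjusted p = 0.0315), leaving out the libraries richest in muscle within each group (−1.01, adjusted p = 0.000477), and leaving out injury replicate 3 (−0.80) or 4 (−0.79). Under the muscle covariate none of the 17 was called lower, and the log2 fold changes of Acta2 (0.65), Myh11 (0.07) and Tagln (0.07) turned in sign, as did that of Cnn1. Several of the 17, Acta1 among them, are also among the markers averaged for the covariate, so the loss of their calls is built in. The muscle share also differs between the groups without overlap, so covariate and group cannot be fully told apart.

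Of 8 other relatives with values, listed as broadly expressed, 2 were called higher and 5 lower. Tpm1 and Tpm3, at 4.68-fold and 4.74-fold lower, are genes that give rise to muscle as well as non-muscle tropomyosins, which values per gene do not separate. Their sham means were 69311 and 26171 counts. The call of Tpm3 was lost under the muscle covariate (log2 fold change −0.53, from −2.25), and so was that of Tpm1 (−0.21, from −2.23).

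**Figure D2:**
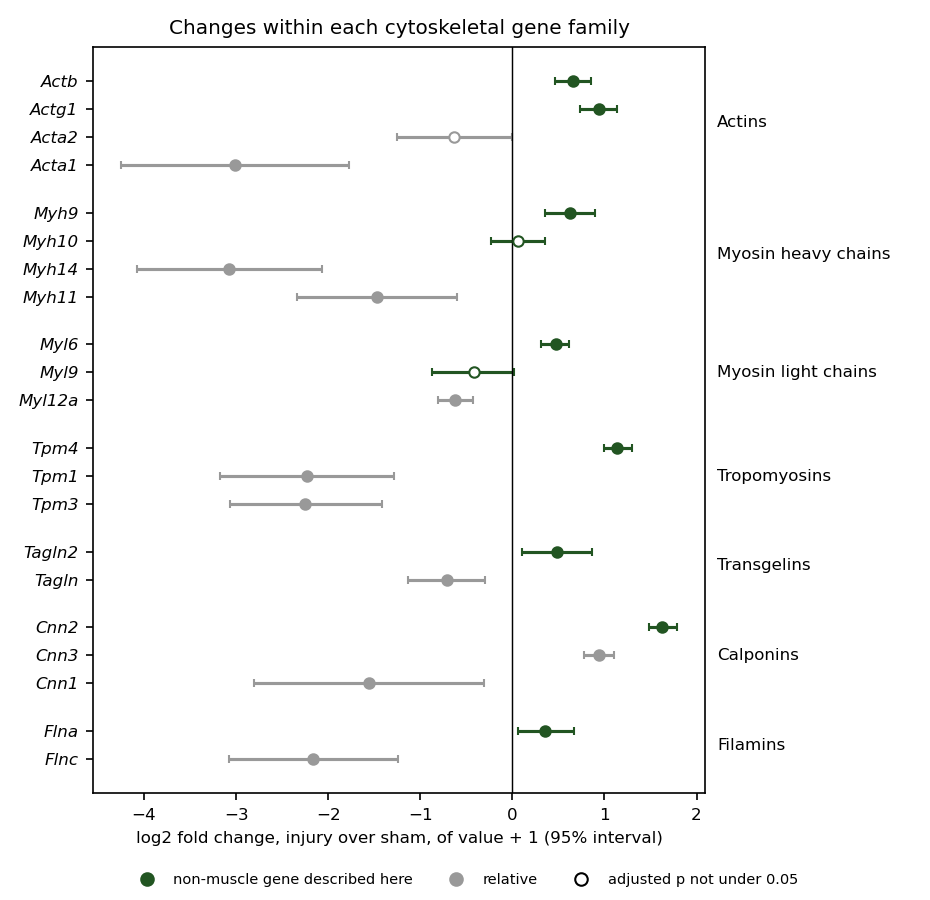
Log2 fold change of injury over sham (horizontal axis, log2 of value + 1) with 95% intervals from limma, for the non-muscle genes (green) and relatives (grey) in 7 gene families. Open circles did not pass. Cnn2, at 1.63, lies farthest to the right, and Acta1, Myh14, Tpm1, Tpm3 and Flnc lie below −2.

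Ratios within a library do not change with how libraries are scaled to each other. Of the 15 ratios of related genes, 12 differed between the groups without overlap, all at the lowest p the design allows (exact two-sided permutation p = 0.0286, adjusted 0.0357). Of all single genes, 55.6% had no overlap in either direction. Many of the 12 have a muscle-type relative, Myh14, Tpm1 or Tpm3 as second gene, in libraries whose muscle share differed between the groups without overlap. Several pairs reuse a gene, and the pairs were chosen with earlier results known, so the 12 are not independent findings. The Actb to Acta2 ratio rose 2.43-fold, with log2 values of 0.71 ± 0.28 in sham and 1.99 ± 0.55 in injury libraries. The Tpm4 to Tpm1 ratio rose 10.3-fold, and Tpm4 went from 3.54 ± 1.06% to 27.8 ± 10.8% of the counts of both genes. Cnn2 rose against Cnn1 (9.16-fold) and also against Cnn3 (1.62-fold, log2 ratio −1.18 ± 0.15 in sham and −0.48 ± 0.12 after injury). Tagln2 rose against Tagln 2.29-fold, from 33.4 ± 1.19% to 53.3 ± 10.5% of the counts of both. The SD of the ratio was larger after injury for each of the 8 pairs set against Acta1, Acta2, Myh11, Tpm1, Tpm3, Tagln, Cnn1 or Flnc.

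**Figure D3:**
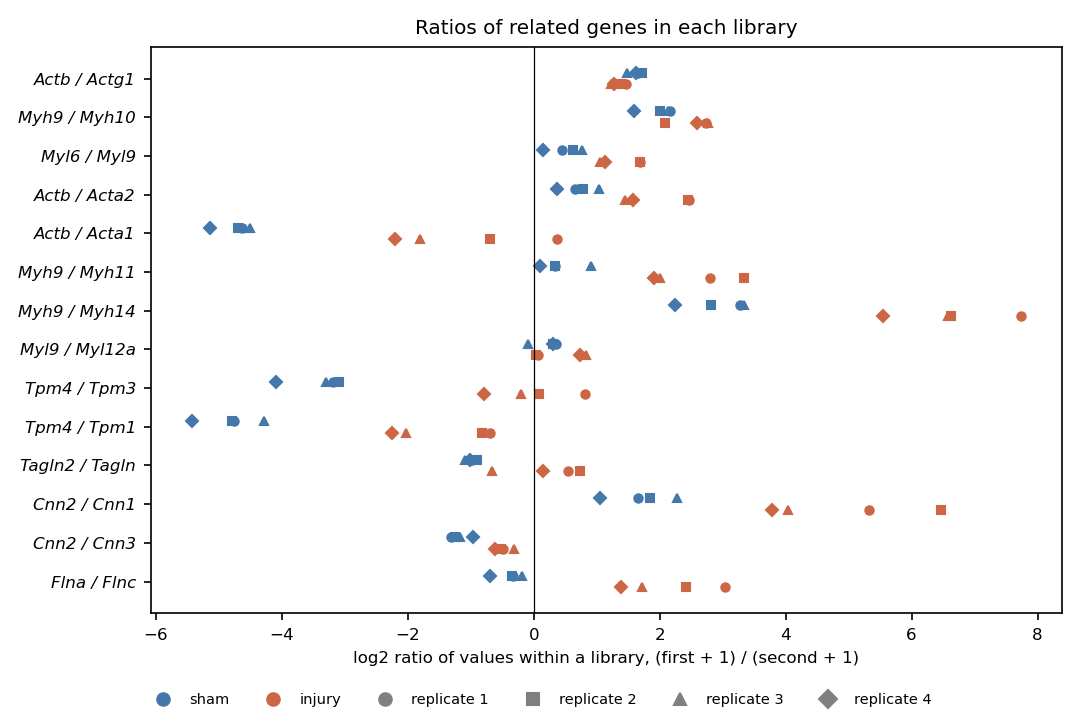
Log2 ratio of the values of related genes in each library (horizontal axis), sham in blue and injury in orange, with one symbol per replicate. The groups separate for 12 of the pairs, and they overlap for Myh9 / Myh10 and Myl9 / Myl12a.

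Per kilobase of annotated exon, Actb had the highest level of the 10 in both groups, with 3406 ± 88.6 normalised counts per kb in sham and 5366 ± 225 after injury. Myl9 came next in sham (2352 ± 400). Myl6, Actg1, Tagln2 and Tpm4 followed at 1197 ± 53.3, 1119 ± 65.0, 1085 ± 152 and 1069 ± 17.3 counts per kb, each overlapping the next. The ends of this run, Myl6 (1134 to 1264) and Tpm4 (1052 to 1093), did not overlap in sham. Flna stood at 793 ± 73.0, Myh9 at 393 ± 32.9 and Cnn2 at 365 ± 19.5, the last pair within their spread, and Myh10 was lowest at 124 ± 17.2. After injury Tpm4 (2367 ± 154) and Actg1 (2150 ± 213) came after Actb, again within their spread, followed by Myl9 (1784 ± 482). Cnn2, at 1134 ± 67.1, had moved from place 9 to place 7. Myh10 remained lowest at 130 ± 19.3.

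Injury libraries fell into an order that several genes shared. Against the sham mean, Myl9 stood at −0.78 and −0.75 on the log2 scale in injury replicates 1 and 2 and at −0.04 and −0.12 in replicates 3 and 4. The smooth muscle genes had the same split. Acta2 was at −1.11 and −1.16 in replicates 1 and 2 and at −0.09 and −0.14 in replicates 3 and 4, and Tagln at −1.04 and −1.08 against −0.33 and −0.41. Flna was at 0.24 and 0.07 in replicates 1 and 2 against 0.61 and 0.52 in replicates 3 and 4, and Myh9 at 0.51 and 0.39 against 0.89 and 0.72. Cnn2 did not have this split, at 1.58, 1.65, 1.75 and 1.56. The 15 smooth muscle and pericyte markers summed to 0.173 and 0.160% of counts in injury replicates 1 and 2 and to 0.268 and 0.264% in replicates 3 and 4, with 0.466 to 0.602% in sham. Of them 2 were called higher, 7 lower and 6 did not pass, and none was at 0 in any library. Des, the most abundant of the 15, weighs most in their sum and went from 35784 ± 9662 to 5873 ± 3611 counts (7.07-fold lower). Its log2 fold change of −2.82 was near the median of −2.96 of the skeletal muscle markers. Skeletal muscle had this split too. Its markers summed to 0.406 and 0.743% in injury replicates 1 and 2 and to 1.91 and 2.53% in replicates 3 and 4. Acta1 was at −4.47 and −3.48 in replicates 1 and 2 against −2.29 and −1.82 in replicates 3 and 4. The part of smooth or skeletal muscle cells in the values of Myl9, Flna and Myh9 was not tested.

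**Figure D4:**
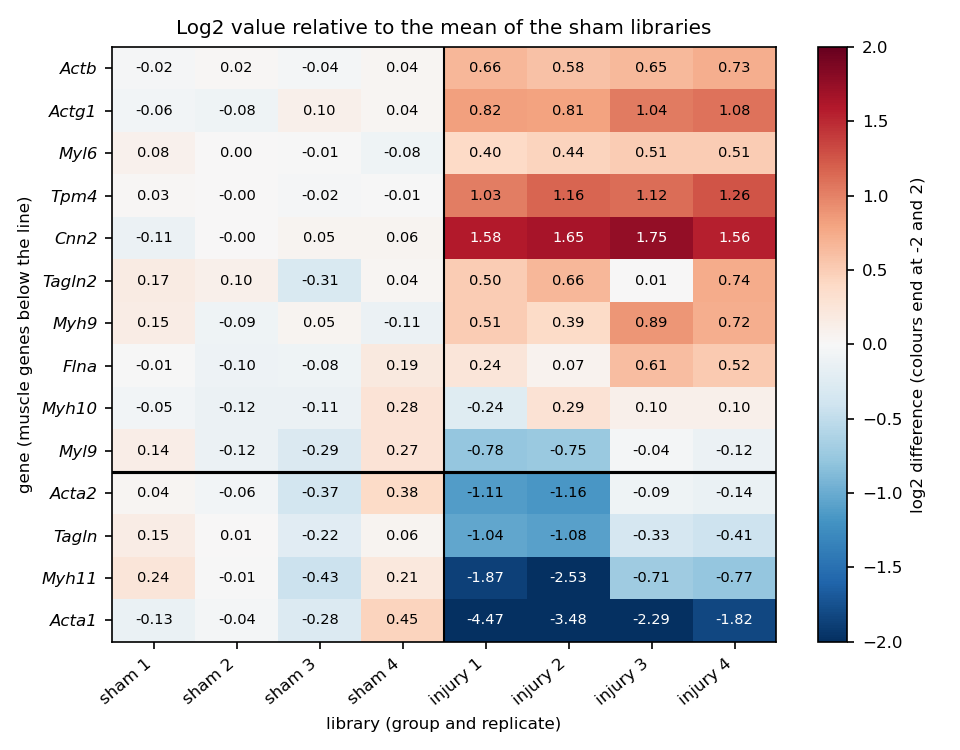
Log2 value of each gene in each library relative to the mean of the 4 sham libraries (numbers and colour), with the 10 non-muscle genes above the line and smooth muscle (Acta2, Tagln, Myh11) and skeletal muscle (Acta1) genes below it. Cnn2 is at 1.56 to 1.75 in all 4 injury libraries, whereas Myl9 is at −0.78 and −0.75 in replicates 1 and 2 and near 0 in replicates 3 and 4.

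Leukocytes also express Actb, Myh9, Tagln2 and Cnn2, and leukocyte markers moved in the same direction as these genes. Of 11 leukocyte markers with values 10 were called higher and none lower, with a median log2 fold change of 0.86, and they summed to 0.0673 to 0.108% of counts in sham and 0.165 to 0.214% in injury libraries. None of the 11 was at 0 in any library, while the T cell gene Cd3e, the B cell gene Cd79a and the neutrophil genes Ly6g and S100a8 had no values. Lyz2, lysozyme of macrophages and neutrophils, rose 2.92-fold to 20074 ± 1585 counts. Endothelial markers went down, with 8 of 10 called lower, none higher and Egfl7 1.95-fold lower. Of 11 proliferation markers 4 were called higher, 1 lower and 6 did not pass. The 1 called lower, Ube2c, shares 592 exon bases with the skeletal muscle gene Tnnc2. The part of leukocytes in the rise of the 10 genes was not tested.

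Genes that act with these proteins were counted in lists. Each count is to be read beside the 28.5% of all genes called higher and the 31.3% called lower. Of 18 genes of the Arp2/3 complex, which nucleates branched actin filaments, and its activators, 15 were called higher, 1 lower and 2 did not pass, with a median log2 fold change of 0.51 against −0.021 for all genes. Arpc1b, a complex subunit and the most abundant of the list, rose 1.51-fold, from 2563 ± 348 to 3837 ± 304 counts, though 931 bases of its exons are shared with Pdap1. Wasf1, an activator of the complex, rose 2.02-fold, and the alternative subunit gene Arpc5l was 2.31-fold lower. With the muscle covariate 8 of the 18 were called higher. Under that covariate the higher calls over all 15747 genes also dropped, from 4481 to 2251, which bears on each list below.

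Actin crosslinkers, bundlers and membrane linkers had 12 of 19 called higher, 5 lower and 2 that did not pass (median 0.61). Marcks, which encodes a membrane-bound actin-binding protein, rose 3.64-fold, from 1968 ± 164 to 7178 ± 826 counts. The most abundant gene of that list and the one that fell farthest was Actn2, the alpha-actinin of muscle Z-discs, at 8.24-fold lower. Among 22 genes of actin monomer binding, capping and severing, 11 were called higher, 7 lower and 4 did not pass (median 0.29). Twf1, encoding the monomer-binding protein twinfilin-1, rose 2.05-fold, with 395 of its exon bases shared with Irak4. Gsn, encoding the severing protein gelsolin, was the most abundant and fell 2.34-fold, from 82117 ± 20262 to 34976 ± 8454 counts. Cap2, a muscle-rich relative of the monomer-binding gene Cap1, was 6.99-fold lower. Under the muscle covariate no crosslinker and 3 turnover genes were called lower.

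Of 20 genes that control the motor, among them genes for myosin phosphatase, myosin light chain kinase and formins, 11 were called higher, 5 lower and 4 did not pass (median 0.30). The formin gene Diaph3 rose from 4, 20, 13 and 4 counts to 28, 17, 42 and 40, groups that overlapped. Ppp1cb, the catalytic subunit of myosin phosphatase, was 1.78-fold lower, from 5061 ± 895 to 2832 ± 433. In place of 11, 6 of the list were called higher without the libraries richest in muscle within each group, and 3 with the muscle covariate. Of 20 focal adhesion adaptors 12 were called higher, 6 lower and 2 did not pass (median 0.27). Tns3, encoding tensin-3, rose 2.99-fold, while Tns1, encoding tensin-1, fell 1.44-fold from 9868 ± 487 counts and Lims2 fell 2.16-fold.

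**Figure D5:**
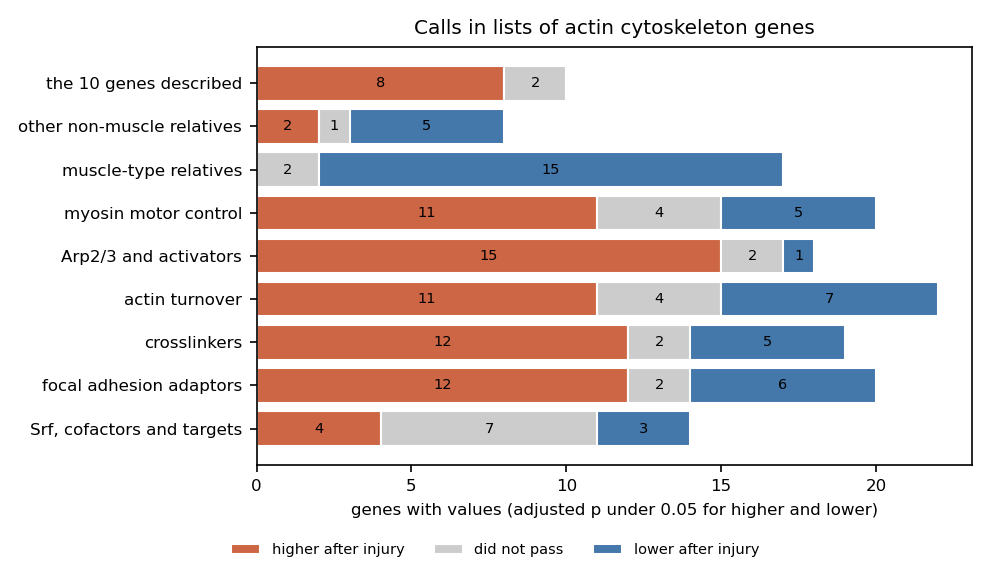
Number of genes (horizontal axis) called higher, called lower or not passing at an adjusted p of 0.05 in each list of actin cytoskeleton genes. The Arp2/3 list had 15 of 18 called higher, and the muscle-type relatives had 15 of 17 called lower.

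Serum response factor, encoded by Srf, drives many actin cytoskeleton genes through a promoter motif called the CArG box, together with cofactors held back by actin monomers. Of 14 genes for Srf, its cofactors and textbook targets, 4 were called higher, 3 lower and 7 did not pass (median −0.05). Over all genes 28.5% were called higher and 31.3% lower, so higher calls were about as frequent in this list as elsewhere. Ccn2, a matricellular growth factor gene and the most abundant of them, rose from 5198 ± 1233 to 15776 ± 4340 counts (log2 fold change 1.59), with 665 exon bases shared with Gm15270. Srf itself did not pass (log2 fold change −0.36, adjusted p = 0.0630), and its cofactor gene Mrtfa was called higher (0.43). In place of 3, 6 genes were called lower when injury replicate 3, or the libraries richest in muscle within each group, were left out.

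RefSeq promoter windows on GRCm38.p6, from 250 bases before to 50 after each annotated start, were on hand for 9 of the 10 genes, the exception being Actb. A CArG box was found in those of Actg1, Cnn2, Myl6 and Myl9, where it was searched by its usual consensus, which reads alike on both strands. A box is present in 1.63% of all 32851 RefSeq windows, and of the 11288 tested genes with a window 1.56% do. The boxes, found in 4 of the 9 genes with a window, are shown in capitals with their surroundings, 5′ to 3′ on the strand of the gene. Promoter sequence was not used to choose the genes. Many actin cytoskeleton genes are driven by Srf, however, so the choice is not independent of the box. The box of Actg1 starts 90 bases before the annotated start, in chr11:120348546-120348645 on the reverse strand, that of Cnn2 56 bases before, in chr10:79988484-79988583 on the forward strand, and that of Myl9 161 bases before, in chr2:156775243-156775342 on the forward strand. Myl6 has 2 annotated starts, and the box lies 50 bases before the inner one, in chr10:128493040-128493069 on the reverse strand, a stretch that is exonic in other transcripts.
Actg1: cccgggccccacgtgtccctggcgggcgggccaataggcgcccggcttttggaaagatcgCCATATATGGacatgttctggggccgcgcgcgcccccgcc
Cnn2: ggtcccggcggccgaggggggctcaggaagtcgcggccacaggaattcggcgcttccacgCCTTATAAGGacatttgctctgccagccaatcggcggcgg
Myl9: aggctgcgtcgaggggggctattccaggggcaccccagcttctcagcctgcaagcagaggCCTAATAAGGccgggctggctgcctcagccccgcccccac
Myl6: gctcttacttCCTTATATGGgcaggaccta
Genes with a box were among both the steepest rises (Cnn2, Actg1) and the genes that did not pass (Myl9), and Tpm4, Myh9, Tagln2 and Flna were called higher with no match in their windows. A match is a description of the letters and not of binding.

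The genes with values of at least 50 whose pattern over the 8 libraries was most like the average of the 10 included Lpp, Ttc37, Ddx3x and Nfatc3, with Pearson correlations of 0.991 to 0.988 across libraries that form separate groups. Lpp, a focal adhesion protein gene, rose 1.57-fold. After the mean of each group was taken off, the genes most like the average were Scn4b, Mettl11b, Gm15533, Mylk2 and Atp1b1 (0.992 to 0.998), all of them lower after injury, among them the skeletal muscle myosin kinase gene Mylk2. With group means taken off, Myl9 and Flna followed that average most closely, at 0.940 and 0.852, and Tagln2 and Cnn2 least, at −0.051 and 0.128. Each of these genes is itself part of the average, which raises its correlation.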

How the data were processed

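Each deposited file gives a score per gene, named as normalised counts per the file headers and stored by the authors as whole numbers. In 6 of the 8 libraries 1 or more of the integers from 2 to 59 were missing or over-represented against their neighbours. With the headers, this is why the scores were not taken as raw counts and no count model was used. Per the submitters' processing notes, the tools were edgeR 3.12, StringTie 1.3.5, STAR 2.7.6a and Trimmomatic 0.39, and the builds mm10 and mm9 were named without roles. The sources used here do not give the normalization, the strandedness or the rule that left 39703 of 55450 genes without a value. Without raw counts the depth of sequencing is unknown.

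Groups came from the sample titles. The model covered all 15747 genes with values. It used log2(value + 1) and limma 3.58.1 (R 4.3.3), one term for group, and a prior variance following mean expression, after a filter of at least 1 in at least 4 libraries. Benjamini-Hochberg adjustment of the two-sided p-values ran over these genes, and 0.05 was the threshold for a call. Adding 1 before the log makes fold changes of low genes too small. Ratios of related genes were tested by exact permutation of the 8 libraries. The fit was tested on simulated data. GENCODE M21, which holds 99.9% of the tested gene identifiers, gave positions, exon lengths and overlaps. Within a group, 1.11 to 2.25% of genes had equal values in any pair of libraries.

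The members, gene lists and pairs were chosen with earlier results of these data known. Genes of the lists were named by a rule: the most abundant gene and the called gene (mean of at least 20) with the largest change in each direction. Genes named for likeness had a mean of at least 50. A few genes that these rules name, and 1 of the 15 ratios, are not reported here. Same-numbered libraries of the groups did not all deviate together, so the numbers were not taken as pairs. Alternatives were other scalings, a pseudocount of 0.1, other filters, a single prior variance, the replicate number as a block, a muscle covariate, genes without overlapping exons and libraries left out. Python 3.11.15 and matplotlib 3.10.9 made the figures.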

Additional observations from a re-analysis of the deposited data

Results flagged for a closer look

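In groups of 4 libraries, 10 of 146 groups examined held 1 library far from the other 3, and chance flags about 1 in 20. Sham replicate 4 accounted for Myh10 (1565 counts), Cnn3 (1839), Arpc1b (2045), Arpc5l (1493), Des (50261) and Tpm3 (39936). Injury replicate 1 stood apart for Arpc1b (4288) and Egfl7 (914), and injury replicate 4 for Gsn (47507). The log2 ratio of Myl9 to Myl12a was −0.10 in sham replicate 3, below the other sham libraries. Sham replicate 4 also had the largest skeletal muscle share.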

How the results depend on the processing

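Actb, Actg1, Myh9, Myl6, Tpm4 and Cnn2 were called higher under all 20 alternatives, except that Tpm4 was not in the fit of genes without overlapping exons, and the 10 genes gave 6 to 8 higher calls. With the muscle covariate, 2251 of all genes were called higher and 1753 lower. The count of the 10 called lower was 1 with equal library totals and 1 without the libraries with the most muscle within their group (sham replicate 4, injury replicates 3 and 4), and leaving out 1 library gave 0 to 1. Equal totals, with a median of −0.112 over all genes, gave log2 fold changes of −0.03 for Myh10, −0.52 for Myl9, 0.39 for Tagln2 and 0.27 for Flna. Without those libraries Myl9 was at −0.68 and Flna at 0.22. Leaving out 1 library gave −0.02 to 0.16 for Myh10, −0.55 to −0.30 for Myl9, 0.37 to 0.63 for Tagln2 and 0.28 to 0.46 for Flna. The muscle covariate gave 0.46 for both Myl9 and Tagln2, and it turned the sign of Cnn1 (0.71), Gm15533 (0.11), Mylk2 (0.01), Acta2 (0.65), Myh11 (0.07) and Tagln (0.07). The cause of these shifts was not tested. The muscle share differs between the groups without overlap, so the covariate and the group cannot be fully told apart.

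Many counts in the lists moved with the muscle covariate. That covariate is the mean of the 30 skeletal muscle markers, so their own counts under it carry no information about injury. Several muscle-type relatives and the crosslinker gene Actn3 are among these markers too. The covariate left these counts called lower: 0 muscle-type relatives, 2 other relatives, 0 motor control genes, 3 turnover genes, 0 crosslinkers, 1 adhesion adaptor, 0 Srf genes, 1 skeletal muscle, 2 smooth muscle, 4 endothelial and 0 proliferation markers. It left these called higher: 1 other relative, 3 motor control genes, 8 Arp2/3 genes, 2 Srf genes, 4 tendon, 3 skeletal muscle, 4 leukocyte and 0 proliferation markers. Among genes without overlapping exons, 9 muscle-type relatives, 0 Arp2/3 genes, 18 skeletal muscle, 4 smooth muscle and 0 proliferation markers were called lower, with 1 other relative, 4 turnover genes and 1 Srf gene higher. There fewer genes were tested. Equal totals gave 1 other relative higher, and 5 Srf genes and 2 proliferation markers lower. With the same 3 libraries left out, 1 other relative, 6 motor control genes and 0 proliferation markers were called higher, and 2 Arp2/3 genes, 6 Srf genes, 12 smooth muscle and 2 proliferation markers lower. A mean of at least 50 left 2 proliferation markers higher. Leaving out 1 library gave 1 to 2 Arp2/3 genes lower, 2 to 6 Srf genes lower, and 2 to 6 proliferation markers higher and 1 to 2 lower.

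With the replicate number as a block, 4635 genes were called higher and 5107 lower, and 8 of the 10 genes were higher. Deviations of same-numbered libraries correlated at −0.06 to 0.56, and 5 of 8 libraries correlated best with their own number, which is a hint from the data and not part of the design. The unknown sequencing depth sets a limit on how firmly low genes such as Diaph3 can be read.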
